A study of Homo sapiens with 15 samples.

Results

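The mildest glutamine limitation in the series, 0.28 mM glutamine, was compared with full medium, which holds 2.5 mM. The comparison used 6 of the 15 libraries, 3 from each medium. They were chosen by the glutamine concentration in their labels and not by any measured value. All cells were MCF10A, an established line of non-tumorigenic human breast epithelial cells, labelled as wild type. At 0.28 mM the base was DMEM/F12 without glutamine to which glutamine was added back, and full medium had the concentration usual for DMEM/F12. The 9 other libraries came from cells at 0.20, 0.12 and 0.04 mM, again 3 each, and entered the same statistical fit. Each group is labelled as 3 biological replicates, and the time spent in each medium is not given in the sources used here. A single cell line was used, so no result extends to other cells by these data.

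Glutamine is taken up by carriers such as SLC1A5 and SLC38A2 and can be broken down to glutamate. Glutamine synthetase (GLUL) makes it from glutamate and ammonia. Glutamine also gives its amide nitrogen to purines, pyrimidines, asparagine and, through GFPT1 and GFPT2, hexosamines. Cells short of an amino acid can activate the transcription factor ATF4 and restrain mTORC1, and growing epithelial cells that slow down express fewer S phase genes and less histone mRNA.

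Of 13828 genes tested, 287 (2.08%) differed between 0.28 mM and full medium at an adjusted p under 0.05 in edgeR's quasi-likelihood test, in which the replicate number was a block. Of these, 170 rose (1.23% of genes tested) and 117 fell (0.846%). The changes were small: the median absolute log2 change of the 287 genes was 0.375, and 10 genes changed by at least 2-fold, 7 upwards and 3 downwards. Protein-coding genes made up 163 of the 170 that rose and 114 of the 117 that fell, and 11809 of the 13828 tested. In 285 of the 287 genes all 3 replicate pairs differed in the same direction, the exceptions being SH2D2A and MT-ND5. A test with the replicate block favours genes whose pairs agree, so this agreement is no separate evidence for the calls. Levels are in CPM, the count of a gene scaled to a common library size, here the TMM-scaled one. By CPM, the libraries of the 2 media did not overlap in 1285 genes (9.29% of all genes tested), among them 91 of the genes that rose and 69 of those that fell.

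The calls rested on the block. Without it edgeR called 0 genes, with 616 at an unadjusted p under 0.05, and DESeq2 without it called 1, IL31RA. With the block, 2196 genes had an unadjusted p under 0.05. The calls also rested on single libraries: edgeR called 33 genes without 0.28 mM replicate 1, 24 without 0.28 mM replicate 3, 68 without full-medium replicate 2, 68 without full-medium replicate 3, and 780 without full-medium replicate 1. When the libraries were scaled to the ERCC spike-ins instead of by TMM, the median of all genes moved by -0.129 on the log2 scale and the calls became 18 up and 102 down. Changes below are relative to the median gene as TMM sets it. All 287 genes kept their direction in each of these alternatives. The alternatives reuse the libraries from which the genes were chosen, so reversals were unlikely and their absence is no separate evidence.

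**Figure D1:**
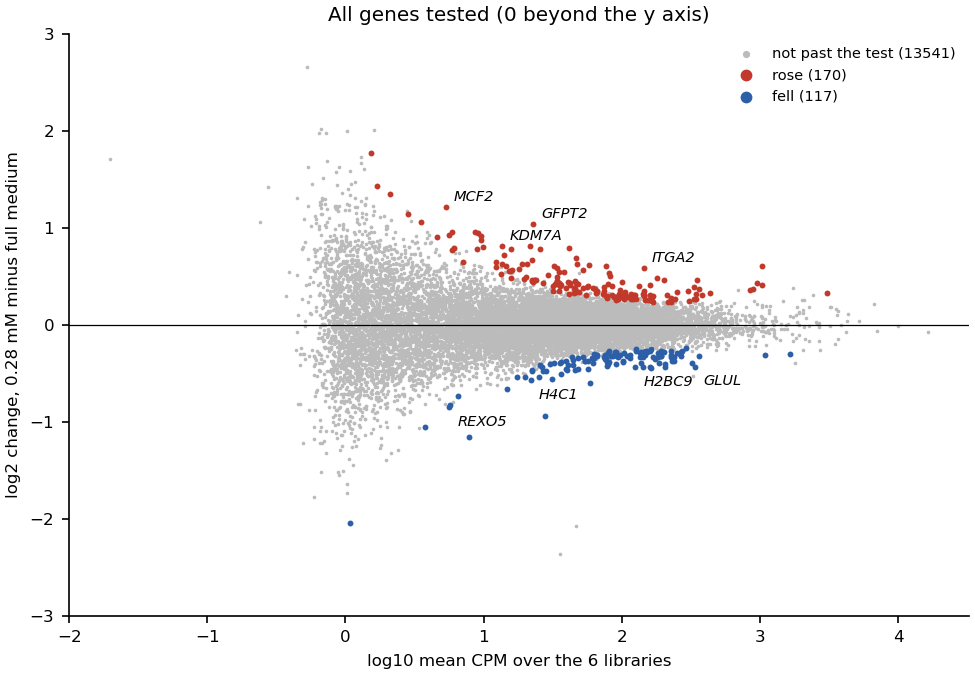
Each point is 1 of the 13828 genes tested; the x axis is the log10 mean CPM over the 6 libraries and the y axis the log2 change, 0.28 mM minus full medium. The 170 genes that rose (red) and 117 that fell (blue) mostly lie within 1 log2 unit of 0, and only 10 of them changed by 2-fold or more.

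The genes least dependent on any single library were few. Only 16 of the 287 passed in all 6 fits that each left out 1 library of the comparison, 13 that rose and 3 that fell. They are described here for that reason and were chosen after their values were seen. Without the block edgeR called 0 of these 16, and without replicate 3 in any group it called 1 gene in all. GFPT2, the hexosamine pathway enzyme that uses glutamine as nitrogen donor, lies on chromosome 5 at 180300698 to 180353336 (GRCh38.p14). Its level was 14.96, 14.2 and 14.7 CPM in full-medium replicates 1 to 3 and 25.2, 26.9 and 40.7 CPM at 0.28 mM. Every 0.28 mM library lay above every full-medium library, and the third was the highest. The log2 change was 1.04 ± 0.14 (SE, n = 3 per group; edgeR adjusted p = 0.000196), a 2.05-fold rise.

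Among the other genes of this kind were a chromatin enzyme, a matrix protein and several surface proteins. KDM7A, a histone lysine demethylase, measured 8.13, 10.6 and 10.46 CPM in full medium and 13.4, 17.3 and 21 CPM at 0.28 mM, without overlap (log2 change 0.81 ± 0.14, edgeR adjusted p = 0.00194). SMOC1, a secreted calcium-binding matrix protein, measured 34.9, 30.9 and 39.7 CPM against 47.8 to 76.6 CPM at 0.28 mM (0.69 ± 0.10). IL31RA, a subunit of the interleukin-31 receptor, stood at 48.6, 43.0 and 44.8 CPM in full medium and 66.8, 64.7 and 78.8 CPM at 0.28 mM (0.61 ± 0.09). ITGA2, the alpha-2 integrin subunit that binds collagen, stood at 135, 105 and 107 CPM and then 181, 152 and 184 CPM (0.58 ± 0.09, edgeR adjusted p = 0.000952). NT5E, the surface enzyme that makes adenosine from AMP, rose from 319, 348 and 227 CPM to 393, 447 and 381 CPM (0.46 ± 0.08), with the lowest 0.28 mM library above the highest full-medium library. The remaining risers were ANTXR2 (0.63), IGSF9B (0.61), WSB1 (0.55), KYNU (0.51), ZBTB38 (0.47), NCOA3 (0.42) and PLAU (0.48), the last uncertain because 31% of its exonic length overlaps another gene. KYNU is kynureninase of tryptophan breakdown, NCOA3 a nuclear receptor coactivator and PLAU the urokinase plasminogen activator. With ERCC scaling, ITGA2 (0.46, edgeR adjusted p = 0.0544) and NT5E (0.34, 0.151) no longer passed, nor did KYNU, ZBTB38, NCOA3, WSB1 and PLAU.

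The 3 fallers among these 16 were GLUL, the histone gene H2BC9 and JMJD4. JMJD4 measured 72.8, 73.0 and 66.5 CPM in full medium and 56.4, 48.8 and 36.0 CPM at 0.28 mM (-0.60 ± 0.10), but 53.8% of its exonic length overlaps another gene and counts may be shared. H2BC9 is described with the histones and GLUL with the glutamine genes.

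**Figure D2:**
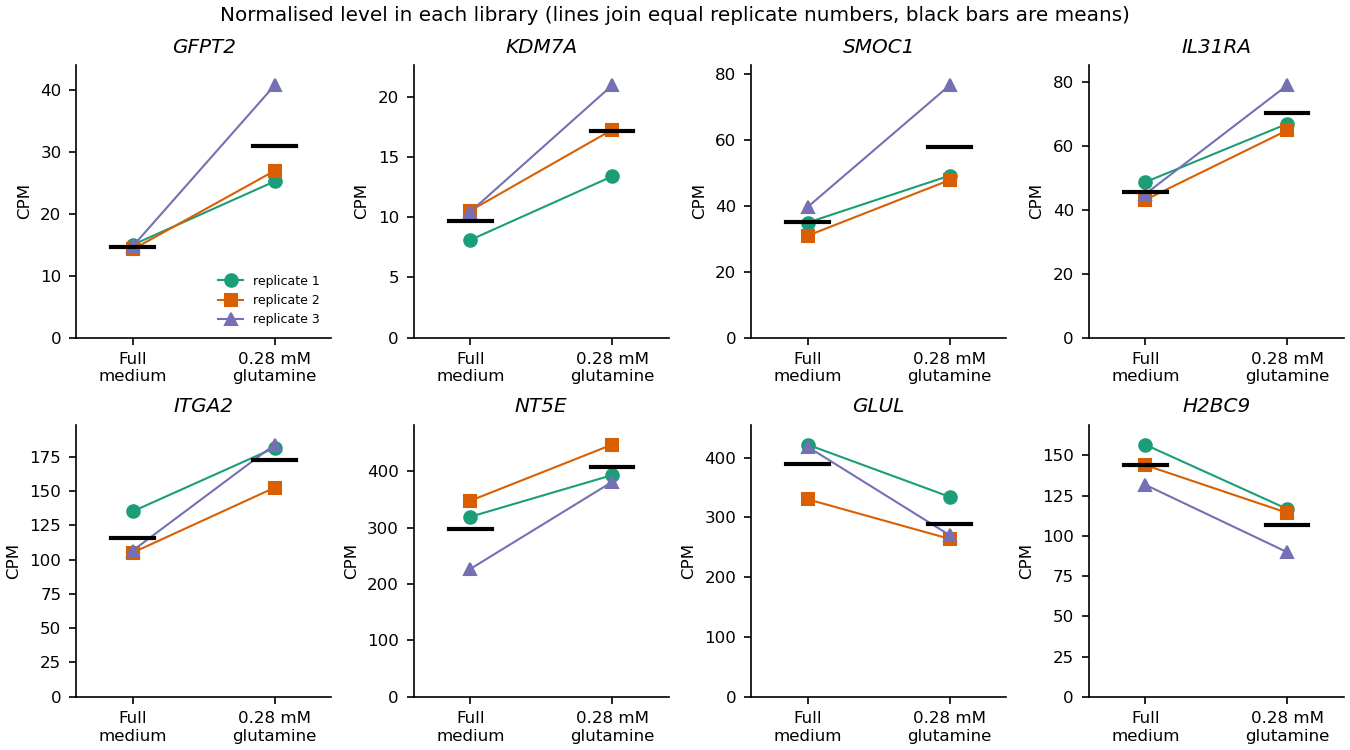
Level (CPM, y axis from 0) of 8 genes in the 3 full-medium and 3 0.28 mM libraries; lines join libraries with the same replicate number and black bars are group means. The 6 genes that rose and the 2 that fell, GLUL and H2BC9, moved the same way in all 3 pairs, and for GFPT2 the levels went from 14.2 to 14.96 CPM to 25.2 to 40.7 CPM.

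Of 28 tested genes for glutamine and glutamate enzymes, 2 rose, GFPT2 among them, and 2 fell (GLUL and PYCR3), against 1.23% and 0.846% of all genes tested. The other 24 did not pass, and the list's median log2 change was -0.05 against 0.00 over all genes. GLUL, on chromosome 1 at 182378098 to 182391790, measured 422, 330 and 418 CPM in full medium and 335, 264 and 270 CPM at 0.28 mM. The groups overlapped slightly, since full-medium replicate 2 lay below 0.28 mM replicate 1, but each 0.28 mM library was below its own pair. Its log2 change was -0.43 ± 0.07 (edgeR adjusted p = 0.000952), and the call held without any single library (-0.51 to -0.32). The GLUL call ended without the block. PYCR3, which catalyses the last step of a proline synthesis route, fell from 38.2, 36.3 and 38.0 CPM to 32.1, 26.1 and 18.2 CPM (-0.56 ± 0.13), without overlap. The list's median turned to 0.01 without full-medium replicate 3. The call of PYCR3 ended without 0.28 mM replicate 1 or 3 or full-medium replicate 2 or 3 (-0.69 to -0.37).

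Among 23 tested amino acid transporters, SLC38A2 and SLC7A2 rose, against 1.23% of all genes, and 21 did not pass (median 0.13, and 0.00 with ERCC scaling). SLC38A2, a sodium-coupled carrier of glutamine and other small neutral amino acids, measured 273, 376 and 304 CPM in full medium and 337, 473 and 421 CPM at 0.28 mM. The groups overlapped, while each pair rose (0.37 ± 0.07, edgeR adjusted p = 0.00552). SLC7A2, a cationic amino acid carrier, changed by 0.30 ± 0.07. The glutamine importer SLC1A5 (0.15 ± 0.07, edgeR adjusted p = 0.237; 23.8% of its exonic length overlaps another gene), the cystine-glutamate exchanger SLC7A11 (0.24 ± 0.11) and the leucine exchanger SLC7A5 (0.13 ± 0.08) did not pass. Calls of both carriers ended without 0.28 mM replicate 1 or 3 or full-medium replicate 2, and with ERCC scaling.

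In the ATF4 list, 2 of 41 tested members rose, SLC38A2 and the pseudokinase TRIB3, against 1.23% of all genes, and 39 did not pass (median 0.12, which turned to -0.01 with ERCC scaling). By log2 change 31 members lay above 0 and 10 below, the lowest at -1.14, and 0 of these 10 passed. An unadjusted p under 0.05 was found for 34.1% of the ATF4 list and 30.4% of the transporters, against 15.9% of all genes. Without the block edgeR gave such a p to 1 of 41 ATF4 list members and 0 of 23 transporters. Over all 13828 genes it was 616. TRIB3 measured 127, 137 and 177 CPM in full medium and 144, 149 and 248 CPM at 0.28 mM (0.27 ± 0.08, edgeR adjusted p = 0.0491). Its groups overlapped and the third pair differed most. The call ended without 0.28 mM replicate 1 or 3 or full-medium replicate 2 or 3, and with ERCC scaling. ATF4 itself stood at 380, 379 and 391 CPM and then 361, 415 and 561 CPM (0.18 ± 0.08, edgeR adjusted p = 0.265), so only the third 0.28 mM library stood clearly apart. PHGDH, which opens serine synthesis, was at 54.5, 64.7 and 91.1 CPM and then 58.5, 75.6 and 142 CPM (0.32 ± 0.10, edgeR adjusted p = 0.0908). CHAC1, which degrades glutathione, was at 1.29, 0.754 and 0.904 CPM and then 0.624, 1.20 and 5.66 CPM, and the third library again carried the difference (0.83 ± 0.56). ADM2, a peptide hormone gene of the list, had 0.388 CPM in full-medium replicate 3 and 6.84 CPM in 0.28 mM replicate 3, with 0.216 to 0.858 CPM in the other libraries (2.01 ± 0.56, edgeR adjusted p = 0.0524). ASNS (0.19), PSAT1 (0.05), SESN2 (0.11) and DDIT3 (-0.28) also missed the test; ASNS had at most 1.65 CPM in any of the 6 libraries and DDIT3 at most 3.66 CPM, and 44.6 and 39.6% of their exonic lengths overlap other genes.

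The replication-dependent histones held more called members than any other of the 40 lists. These genes lie in clusters, are transcribed in S phase and end in a stem-loop instead of a poly(A) tail, so that libraries made by rRNA depletion can hold them. Of 51 tested, 22 fell and 29 did not pass, against 0.846% of all genes that fell. Their median log2 change was -0.28, with 50 of 51 below 0, and the medians of the 3 replicate pairs were -0.26, -0.19 and -0.39. Over all genes the median was 0.00. The bases upstream of the 4 histone genes with the smallest adjusted p are shown because these members moved together; this choice was made after their values were seen. Each run holds the 250 bases before the annotated start (RefSeq, GRCh38.p14), 5′ to 3′ on the gene's strand. The places are chr6:26251364-26251613 (+) for H2BC9, chr6:27814778-27815027 (-) for H2AC14, chr6:26199266-26199515 (+) for H2BC7 and chr6:26045134-26045383 (+) for H3C3. Capitals mark matches, on either strand, to CCAAT, to TATAAA and to ATTTGCAT, the octamer of histone H2B promoters.
H2BC9: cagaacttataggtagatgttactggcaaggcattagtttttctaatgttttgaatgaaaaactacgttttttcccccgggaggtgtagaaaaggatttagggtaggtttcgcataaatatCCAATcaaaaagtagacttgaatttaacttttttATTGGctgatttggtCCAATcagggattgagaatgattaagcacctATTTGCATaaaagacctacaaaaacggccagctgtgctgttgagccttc
H2AC14: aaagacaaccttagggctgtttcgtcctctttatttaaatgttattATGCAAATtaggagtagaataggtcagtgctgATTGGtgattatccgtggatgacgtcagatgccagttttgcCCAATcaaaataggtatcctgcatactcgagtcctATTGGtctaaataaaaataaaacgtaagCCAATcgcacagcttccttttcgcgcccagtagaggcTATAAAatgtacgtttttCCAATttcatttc
H2BC7: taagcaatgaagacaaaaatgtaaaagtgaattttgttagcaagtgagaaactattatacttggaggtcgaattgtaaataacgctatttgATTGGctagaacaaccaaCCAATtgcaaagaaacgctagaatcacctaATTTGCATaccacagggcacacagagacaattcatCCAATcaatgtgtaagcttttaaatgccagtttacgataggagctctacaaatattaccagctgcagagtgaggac
H3C3: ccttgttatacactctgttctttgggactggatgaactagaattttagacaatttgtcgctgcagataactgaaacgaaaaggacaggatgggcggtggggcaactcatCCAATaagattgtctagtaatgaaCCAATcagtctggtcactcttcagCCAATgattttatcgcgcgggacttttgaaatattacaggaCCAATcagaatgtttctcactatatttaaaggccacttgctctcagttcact

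All 4 windows hold CCAAT on the gene's strand, H2BC9, H2AC14 and H2BC7 also on the opposite strand. The octamer starts 49 bases before the start of H2BC9 and 111 bases before that of H2BC7 on the gene's strand, and 204 bases before that of H2AC14 on the opposite one. TATAAA was matched only in H2AC14. Among 46 tested histone genes with an entry in the table, 86.96% held CCAAT, 71.74% TATAAA and 45.65% ATTTGCAT. Among all 35116 windows of that length the shares were 32.01, 10.72 and 1.632%, and among the 10237 windows of genes tested 35.57, 5.382 and 1.319%. The motifs TGANTCA, TGATGNAA and CACGTG were searched in the same way and were held by 1, 1 and 0 of the 46 windows (2.174, 2.174 and 0%), against 6.573, 3.144 and 6.345% of all windows and 3.888, 1.397 and 8.958% of those of genes tested. A match describes these letters only, and no factor's binding was measured.

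H2BC9, a core histone H2B gene, measured 157, 144 and 132 CPM in full medium and 117, 114 and 89.9 CPM at 0.28 mM. All 0.28 mM libraries lay below all full-medium libraries, and the log2 change was -0.43 ± 0.07 (edgeR adjusted p = 0.000952). H2AC14 fell from 159, 169 and 157 CPM to 106, 154 and 106 CPM, without overlap although replicate 2 moved least (-0.43 ± 0.08). H2BC7 fell from 175, 157 and 142 CPM to 126, 135 and 114 CPM (-0.34 ± 0.07), again without overlap. H3C3 measured 287, 285 and 207 CPM and then 222, 224 and 158 CPM, where the groups overlapped because replicate 3 was low in both media (-0.37 ± 0.08, edgeR adjusted p = 0.0144). The deepest fall was that of H4C1, a histone H4 gene, from 30.0, 26.4 and 22.1 CPM to 17.6, 18.5 and 17.1 CPM (-0.57 ± 0.14, edgeR adjusted p = 0.0223). The linker histone H1-3 changed by -0.44 ± 0.11, and the other 16 called members had changes between -0.42 and -0.25. Coding sequences of histone copies are nearly identical, so the counts of single genes are uncertain.

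The count of histone genes that fell depended on the libraries used. It was 1 (H2BC9) without 0.28 mM replicate 1 or 3, 8 without full-medium replicate 2, 6 without full-medium replicate 3 and 29 without full-medium replicate 1, while the median of these fits and the one without 0.28 mM replicate 2 stayed between -0.36 and -0.24. Without replicate 3 in any group 0 fell in edgeR (median -0.23), and with all libraries thinned to the shallowest 10 fell (median -0.29). Without the block it was 0 in edgeR, with 15 members at an unadjusted p under 0.05, and 0 in DESeq2. With ERCC scaling 19 fell (median -0.42). Histone genes are short and rich in GC (median transcript length 503 bases, GC content 57.2%, against 3492.5 bases and 48.0% over all genes tested), and with an offset for GC content and length 17 fell (median -0.23). Beyond that offset, the part of length and GC content in the result was not tested. In bulk RNA, fewer cells in S phase and less histone RNA per such cell cannot be told apart.

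**Figure D3:**
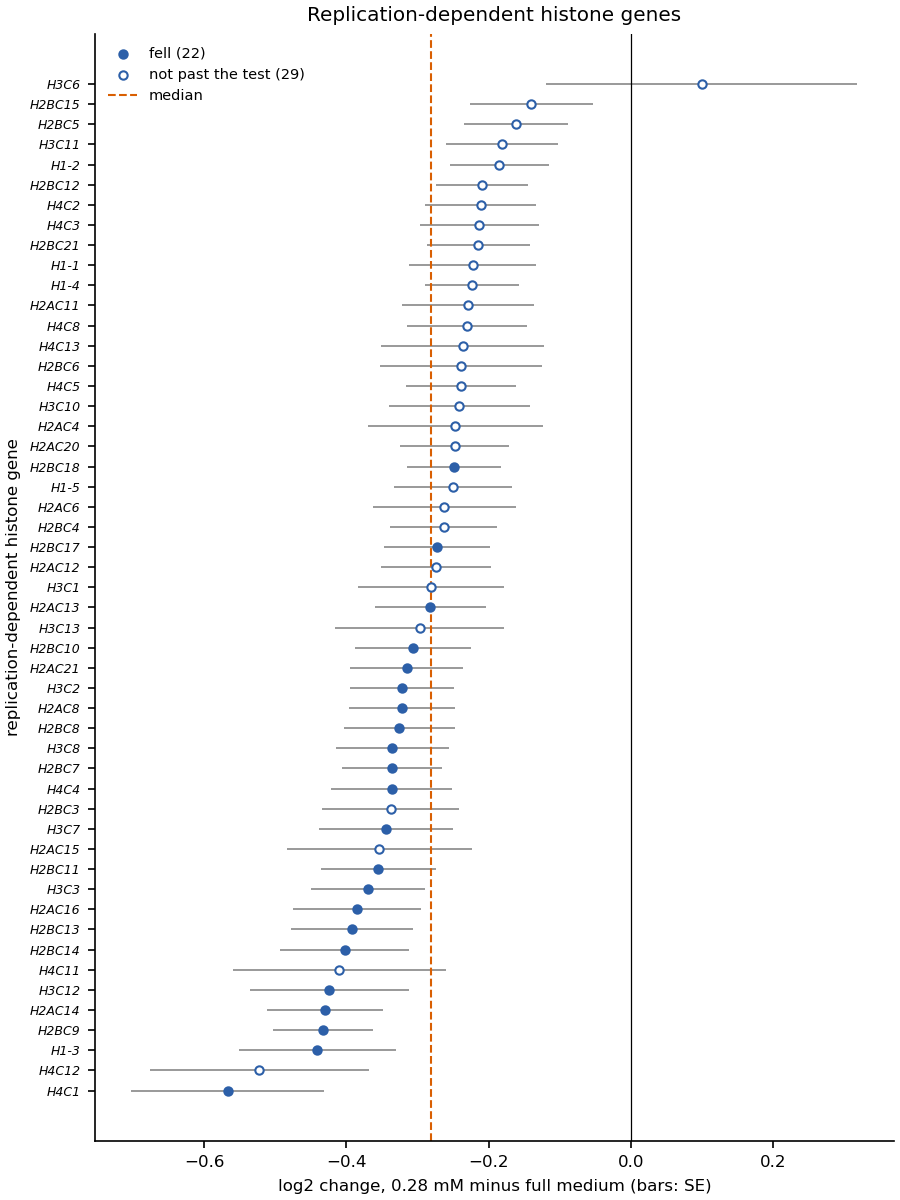
Log2 change (x axis, 0.28 mM minus full medium, bars 1 SE) of the 51 tested replication-dependent histone genes, 1 per line. The 22 filled points fell and the 29 open points did not pass; all but H3C6 lie below 0, and the dashed line is the median of -0.28.

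Some genes for DNA replication and mitosis fell as well. Of 48 tested S phase genes, 5 fell, against 0.846% of all genes (median -0.20, pairs -0.07, -0.14 and -0.36). LIG1, the ligase of Okazaki fragments, went from 88.8, 82.0 and 82.8 CPM to 72.6, 63.2 and 63.5 CPM (-0.35 ± 0.08, edgeR adjusted p = 0.0139), without overlap. The MCM helicase subunits MCM2 (-0.41 ± 0.09; 23.6% of its exonic length overlaps another gene) and MCM5 (-0.28 ± 0.08), the polymerase subunit POLD1 (-0.29 ± 0.07) and the replicative helicase component CDC45 (-0.37 ± 0.10) were the others. No library of the 2 media overlapped for any of these 5 genes. Of 53 tested G2 and M phase genes, HMMR (-0.39), CDC20 (-0.39) and AURKB (-0.37) fell, against the same 0.846%, and the list's median was -0.04. CDC20, the activator of the anaphase-promoting complex, was at 374, 373 and 336 CPM and then 308, 322 and 210 CPM, so the third 0.28 mM library was the lowest. DTYMK, which makes thymidine diphosphate, was the only 1 of 30 tested members of the nucleotide synthesis list called, against 2.08% of all genes (-0.32 ± 0.08). DUT, a dUTPase not on that list and picked with its value known, also fell (-0.37, edgeR adjusted p = 0.00799). The DUT call held in 3 of the 6 fits that each left out 1 library. The cell cycle inhibitor CDKN1A (0.06 ± 0.07) and MYC (-0.05 ± 0.07) did not pass.

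Each of these S phase and mitotic calls ended in several fits. The S phase count was 0 without 0.28 mM replicate 1, without 0.28 mM replicate 3 and without full-medium replicate 3. It was 1 without full-medium replicate 2, 3 without 0.28 mM replicate 2 and 15 without full-medium replicate 1, and its median ran from -0.28 to -0.13. The calls of HMMR, CDC20 and AURKB ended without 0.28 mM replicate 1, without 0.28 mM replicate 3 and without full-medium replicate 3, as did that of DTYMK, and those of HMMR, AURKB and DTYMK also without full-medium replicate 2. Without full-medium replicate 3 the G2 and M phase median turned to 0.04. POLD1 and MCM5 also lost their call with ERCC scaling.

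Of 64 tested ribosome biogenesis genes, 5 fell, against 0.846% of all genes: BOP1, RRP9, NOL6, UTP15 and NOP56, all factors of pre-rRNA processing. RRP9 measured 69.3, 78.6 and 64.3 CPM in full medium and 52.9, 62.1 and 46.7 CPM at 0.28 mM (-0.40 ± 0.09, edgeR adjusted p = 0.0223), and each 0.28 mM library was below all those in full medium. BOP1 changed by -0.32 ± 0.08. The list's median was -0.11, with 55 of 64 members below 0, as were 6912 of all 13828 genes. SRM, spermidine synthase, fell from 320, 271 and 243 CPM to 264, 240 and 178 CPM with overlap (-0.30 ± 0.07), and MXD4, an antagonist of MYC, rose from 44.5, 33.3 and 38.8 CPM to 55.0, 49.9 and 55.1 CPM (0.45 ± 0.09). Of the 73 mitochondrial ribosomal proteins MRPL4 fell (-0.34; 21.4% overlap with another gene), with 65 members below 0 and a median of -0.12; the 1 of 73 called is near the 0.846% of all genes that fell. The ribosome biogenesis count was 0 without 0.28 mM replicate 1 or 3 and without full-medium replicate 2 or 3, 3 without 0.28 mM replicate 2 and 11 without full-medium replicate 1. The calls of SRM, MXD4 and MRPL4 ended without 0.28 mM replicate 1 or 3 and without full-medium replicate 2, that of SRM also without full-medium replicate 3. With ERCC scaling NOL6, UTP15, NOP56 and MXD4 no longer passed.

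Genes of growth factor signalling and adhesion were among those that rose. Of 24 tested genes of ERK output and EGF receptor ligands, 5 rose, against 1.23% of all genes, and 19 did not pass (median 0.14, 0.01 with ERCC scaling). AREG, the ligand amphiregulin, measured 714, 868 and 652 CPM in full medium and 854, 1041 and 954 CPM at 0.28 mM (0.36 ± 0.07, edgeR adjusted p = 0.0117). The groups overlapped, since full-medium replicate 2 exceeded 0.28 mM replicate 1, but every pair rose. DUSP6, a phosphatase of ERK (0.34 ± 0.07; 40.5% overlap with another gene), SPRY4, a feedback inhibitor of the pathway (0.29 ± 0.07), and PHLDA1 (0.40 ± 0.09) rose without overlap. The receptor ERBB3 rose from 2.59, 2.05 and 5.04 CPM to 4.68, 5.65 and 7.43 CPM (0.91 ± 0.23, edgeR adjusted p = 0.0309). With ERCC scaling 0 of the 24 passed in edgeR. The count was also 0 without 0.28 mM replicate 1, without 0.28 mM replicate 3 and without full-medium replicate 3, 1 without full-medium replicate 2, 3 without 0.28 mM replicate 2 and 9 without full-medium replicate 1.

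Of 27 tested members of the integrin and laminin list, ITGA2, ITGB8 and the collagen chain COL6A3 rose, against 1.23% of all genes. The other 24 did not pass (median 0.14, 0.01 with ERCC scaling). The integrin subunit ITGB2, not on this list and picked with its value known, also rose (0.79, edgeR adjusted p = 0.0144). The ITGB2 call held in 4 of the 6 fits that each left out 1 library. COL6A3, a collagen VI chain, went from 41.0, 34.6 and 15.5 CPM to 55.9, 60.4 and 41.6 CPM, with replicate 3 the lowest in both media (0.79 ± 0.14, edgeR adjusted p = 0.00269). Its call ended only without 0.28 mM replicate 1, among the 6 libraries. ITGB8, the beta-8 integrin subunit, went from 43.7, 42.5 and 49.6 CPM to 51.1, 58.7 and 68.4 CPM (0.38 ± 0.09), and lost its call without 0.28 mM replicate 1 or 3 and without full-medium replicate 2 or 3. The next 3 lists are read against the same 1.23% that rose and 0.846% that fell. Of 21 YAP targets NT5E and CCN2 rose, CCN2 by 0.49 ± 0.12. Among 28 immediate early genes CCN2 and the phosphatase DUSP1 (0.29 ± 0.08) rose and ZFP36 (-0.31 ± 0.09), which promotes decay of AU-rich mRNAs, fell; the list's median of 0.11 turned to -0.01 with ERCC scaling. In the inflammatory list PLAU and CXCL8 rose, of 26; CXCL8, the chemokine interleukin-8, stood at 2.49, 4.20 and 4.39 CPM and then 2.96, 7.57 and 12.03 CPM (0.93 ± 0.23, edgeR adjusted p = 0.0242). Calls of CCN2, DUSP1, ZFP36 and CXCL8 ended without 0.28 mM replicate 1 or 3 and without full-medium replicate 2 or 3, that of DUSP1 also without 0.28 mM replicate 2 and that of ZFP36 without any 1 of the 6 libraries. With ERCC scaling ITGA2, ITGB8, NT5E, CCN2, DUSP1, ZFP36, PLAU and CXCL8 no longer passed.

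Of 33 NRF2 targets and glutathione genes, AKR1C1, NQO1 and AKR1B1 rose, against 1.23% of all genes; the list's median of 0.12 turned to -0.01 with ERCC scaling. NQO1, a quinone reductase, measured 322, 409 and 296 CPM and then 377, 508 and 391.8 CPM (0.31 ± 0.08, edgeR adjusted p = 0.0242), so the groups overlapped while each pair rose. AKR1C1, an aldo-keto reductase, changed by 0.53 ± 0.10 and is uncertain because its AKR1C relatives are close copies. All 3 calls ended without 0.28 mM replicate 1, without 0.28 mM replicate 2, without full-medium replicate 2 and with ERCC scaling. That of NQO1 ended also without 0.28 mM replicate 3 or full-medium replicate 3, and that of AKR1B1 without any 1 of the 6 libraries. MCL1, an anti-apoptotic BCL2 family member, was the only 1 of 26 cell death genes to pass (2.08% of all genes did), at 817, 913 and 936 CPM in full medium and 1052, 1166 and 1321 CPM at 0.28 mM (0.41 ± 0.07, edgeR adjusted p = 0.00261). Its libraries did not overlap, and the call ended without 0.28 mM replicate 3 and with ERCC scaling. ARG2, the mitochondrial arginase, rose (0.49 ± 0.12; 37.4% overlap with another gene) and ASL, argininosuccinate lyase, fell (-0.43 ± 0.11). The hypoxia list's ANGPTL4 (0.34 ± 0.07) and ARNT2 and the lysosome list's ULK2 (0.46 ± 0.12) and NPC1 (0.26 ± 0.07) rose, of 21 and 36 tested and against 1.23% of all genes. ARG2, ASL, ULK2 and NPC1 lost their call without any 1 of the 0.28 mM libraries or full-medium replicate 2 or 3, and ANGPTL4 without 0.28 mM replicate 2 or 3 or full-medium replicate 2 or 3. With ERCC scaling ARG2, ULK2, NPC1, ANGPTL4 and ARNT2 no longer passed.

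Of the 13 mRNAs encoded by mitochondrial DNA, 3 rose, against 1.23% of all genes, and the replicate pairs differed widely (medians -0.11, 0.28 and 0.69, fitted median 0.22). MT-CYB, cytochrome b of respiratory complex III, measured 1218, 763 and 562 CPM in full medium and 1366, 1161 and 1188 CPM at 0.28 mM (0.60 ± 0.10, edgeR adjusted p = 0.00194). The full-medium libraries spread more than those at 0.28 mM, and the groups overlapped in the first full-medium library. MT-ATP8 (0.81 ± 0.19; 22.2% of its exonic length overlaps another gene) and MT-ND5 (0.44 ± 0.12) also passed, MT-ND5 in 2 of 3 pairs. The share of all gene counts in these mRNAs was 1.80, 1.06 and 0.865% in full medium and 1.61, 1.28 and 1.38% at 0.28 mM, so it was highest in a full-medium library. MT-CYB lost its call without 0.28 mM replicate 3, and MT-ATP8 and MT-ND5 without any 1 of the 0.28 mM libraries or full-medium replicate 3, MT-ND5 also without full-medium replicate 2 and with ERCC scaling. The list's median ranged from 0.03 to 0.41 over the fits that left out 1 library.

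**Figure D4:**
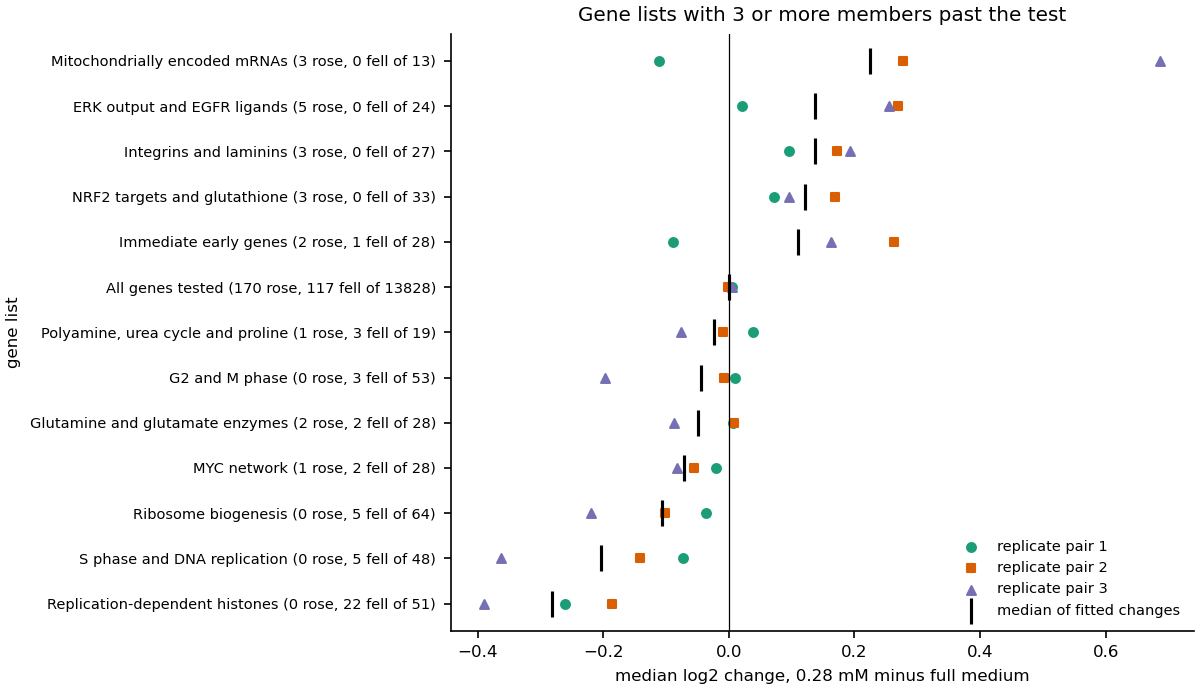
Median log2 change (x axis, 0.28 mM minus full medium) of each gene list with at least 3 members past the test and of all genes tested; black bars are medians of fitted changes and symbols are the 3 replicate pairs. The histone pairs lie between -0.39 and -0.19, while the mitochondrially encoded mRNAs spread from -0.11 to 0.69.

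Apart from the lists, the genes with the largest changes were of varied function. Ranked by log2 change among called genes with at least 5 CPM and no overlap, the 12 that rose most were MCF2 (1.22), GFPT2, PTCHD4 (0.95), SDCBP2 (0.91), MT-ATP8, KDM7A, ARNT2 (0.80), COL6A3, LINC03061 (0.78), C3orf62 (0.77), SMOC1 and CCNG2 (0.67). MCF2, an exchange factor for small GTPases, stood at 2.95, 4.31 and 2.20 CPM in full medium and 6.79, 6.49 and 9.08 CPM at 0.28 mM (SE 0.24, edgeR adjusted p = 0.00575). CCNG2, an atypical cyclin linked to cell cycle arrest, was at 15.97, 17.6 and 17.96 CPM and then 24.2, 29.6 and 28.2 CPM (SE 0.13, edgeR adjusted p = 0.00437). LINC03061, a long noncoding RNA, was at 18, 17.7 and 19.5 CPM and then 21.5, 32.3 and 44.8 CPM, and the third library was the highest. ARNT2 is a partner of bHLH-PAS transcription factors and SDCBP2 a PDZ-domain protein. Beside GFPT2, KDM7A and SMOC1, each of these lost its call without at least 1 library. MCF2 and PTCHD4 lost it without 0.28 mM replicate 1 or 3 or full-medium replicate 3, SDCBP2 and CCNG2 without 0.28 mM replicate 3 or full-medium replicate 2, LINC03061 without 0.28 mM replicate 3, and ARNT2 and C3orf62 without 0.28 mM replicate 1 or 3 or full-medium replicate 2 or 3. ARNT2, C3orf62 and CCNG2 lost it with ERCC scaling too.

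The 12 that fell most were REXO5 (-0.85), NRSN2 (-0.83), MPND (-0.73), THOC6 (-0.66), JMJD4, H4C1, PYCR3, MAPK12 (-0.54), CHMP6 (-0.54), NRM (-0.53), SELENOW (-0.51) and RWDD2B (-0.48). THOC6, a subunit of the mRNA export complex TREX, went from 15.9, 15.7 and 22.9 CPM to 12.9, 10.3 and 10.5 CPM (SE 0.16, edgeR adjusted p = 0.0222). SELENOW, a selenoprotein, went from 50.0, 42.6 and 35.9 CPM to 35.3, 29.2 and 25.8 CPM, so that the 2 media only just did not overlap (SE 0.11, edgeR adjusted p = 0.0142). REXO5, an RNA exonuclease, went from 7.02, 6.90 and 7.88 CPM to 5.15, 3.60 and 3.42 CPM (SE 0.22). MPND, MAPK12 and CHMP6 overlap other genes over 23.2, 29.3 and 21.5% of their exonic length and are uncertain. All of these but JMJD4 lost their call without 0.28 mM replicate 1 and without 0.28 mM replicate 3. REXO5, NRSN2, MPND, THOC6, CHMP6 and RWDD2B also lost it without 0.28 mM replicate 2 and without full-medium replicate 2 or 3, NRM without 0.28 mM replicate 2 or full-medium replicate 1 or 3, H4C1, PYCR3 and MAPK12 without full-medium replicate 2 or 3, and SELENOW without full-medium replicate 2.

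Beyond named members, 28 of the 40 lists had at least 1 called gene. Single members fell in the lists of tRNA synthetases (FARSA, -0.29, of 23 tested), mTORC1 sensing (MLST8, -0.34, of 31), proteasome (ADRM1, -0.28, of 32) and keratins (KRT16, -0.32, of 23). Over all genes 0.846% fell, and a single member is no result about its list. The calls of FARSA, MLST8, ADRM1 and KRT16 ended without 0.28 mM replicate 1 or 3 and without full-medium replicate 2. Those of FARSA, ADRM1 and KRT16 ended also without 0.28 mM replicate 2, and those of FARSA, MLST8 and ADRM1 without full-medium replicate 3. FARSA, ADRM1 and KRT16 also lost theirs with ERCC scaling. In 12 lists with 345 tested members edgeR called 0, against 2.08% of all genes tested. These were cytosolic ribosomal proteins (77 tested, median -0.01), translation factors, serine and one-carbon genes, mesenchymal and protease genes, cholesterol synthesis, fatty acid synthesis, glycolysis, the citric acid cycle, p53 targets, the unfolded protein response, interferon-stimulated genes and snoRNA hosts. At an unadjusted p under 0.05 each of them had between 1 and 10 members. DESeq2 with the block called 2 members over all 12 lists, and 352 of all 13828 genes. Over all genes 15.9% had an unadjusted p under 0.05, and for the cytosolic ribosomal proteins it was 3 of 77.

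The genes called at 0.28 mM are set beside their changes at lower glutamine, for which all comparisons use the same 3 full-medium libraries. At 0.20, 0.12 and 0.04 mM 2050 (14.8%), 1149 (8.31%) and 1858 genes (13.4%) passed. GFPT2 changed by 1.04, 1.06, 1.32 and 1.41 on the log2 scale at 0.28, 0.20, 0.12 and 0.04 mM, and GLUL by -0.43, -0.51, -0.50 and -0.58. CCNG2 changed by 0.67, 0.94, 0.93 and 1.16, and SLC38A2 by 0.37, 0.74, 0.57 and 0.65. KDM7A changed by 0.81, 0.97, 0.83 and 0.80, and IL31RA by 0.61, 0.58, 0.60 and 0.63. Of these genes, only GFPT2 changed more at each lower concentration. GLUL, CCNG2, SLC38A2 and KDM7A changed less at 0.12 than at 0.20 mM. The histone median was -0.28, -0.41, -0.35 and -0.48, with 22, 47, 37 and 49 of 51 members fallen. UTP15, whose call ended in 5 of the 6 fits without 1 library, changed by -0.33 at 0.28 mM and by -0.04, -0.17 and -0.08 at the lower concentrations.

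The 0.04 mM libraries were also compared directly with the 0.28 mM libraries, in the same fit of 15 libraries. In edgeR 6 genes passed (0.0434% of 13828). BIRC3, an inhibitor of apoptosis (0.58 ± 0.10), and ATRX, a chromatin remodeller (0.39 ± 0.08), were higher at 0.04 mM. RPL26 (-0.96 ± 0.17) and RPS26 (-0.51 ± 0.10), ribosomal proteins with many processed copies, TMA7 (-0.50 ± 0.10; 53.2% overlap with another gene) and an unnamed gene, ENSG00000276700 (-0.79 ± 0.09), were lower. None of the 6 was among the 287 genes (2.08% of those tested) called at 0.28 mM against full medium. With so few genes and the 0.28 mM libraries in both comparisons, this is not a result about the 6. GFPT2 was 0.37 ± 0.13 higher at 0.04 than at 0.28 mM, which did not pass (edgeR adjusted p = 0.353), and neither did CCNG2 (0.49 ± 0.12, 0.169), GLUL (-0.15 ± 0.07, 0.550) or H2BC9 (-0.23 ± 0.07, 0.320). The count ran from 1, without 0.28 mM replicate 2, to 12, without full-medium replicate 1, and was 3 without 0.28 mM replicate 1 or 3. It was 0 without the block and 23 with DESeq2 and the block.

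**Figure D5:**
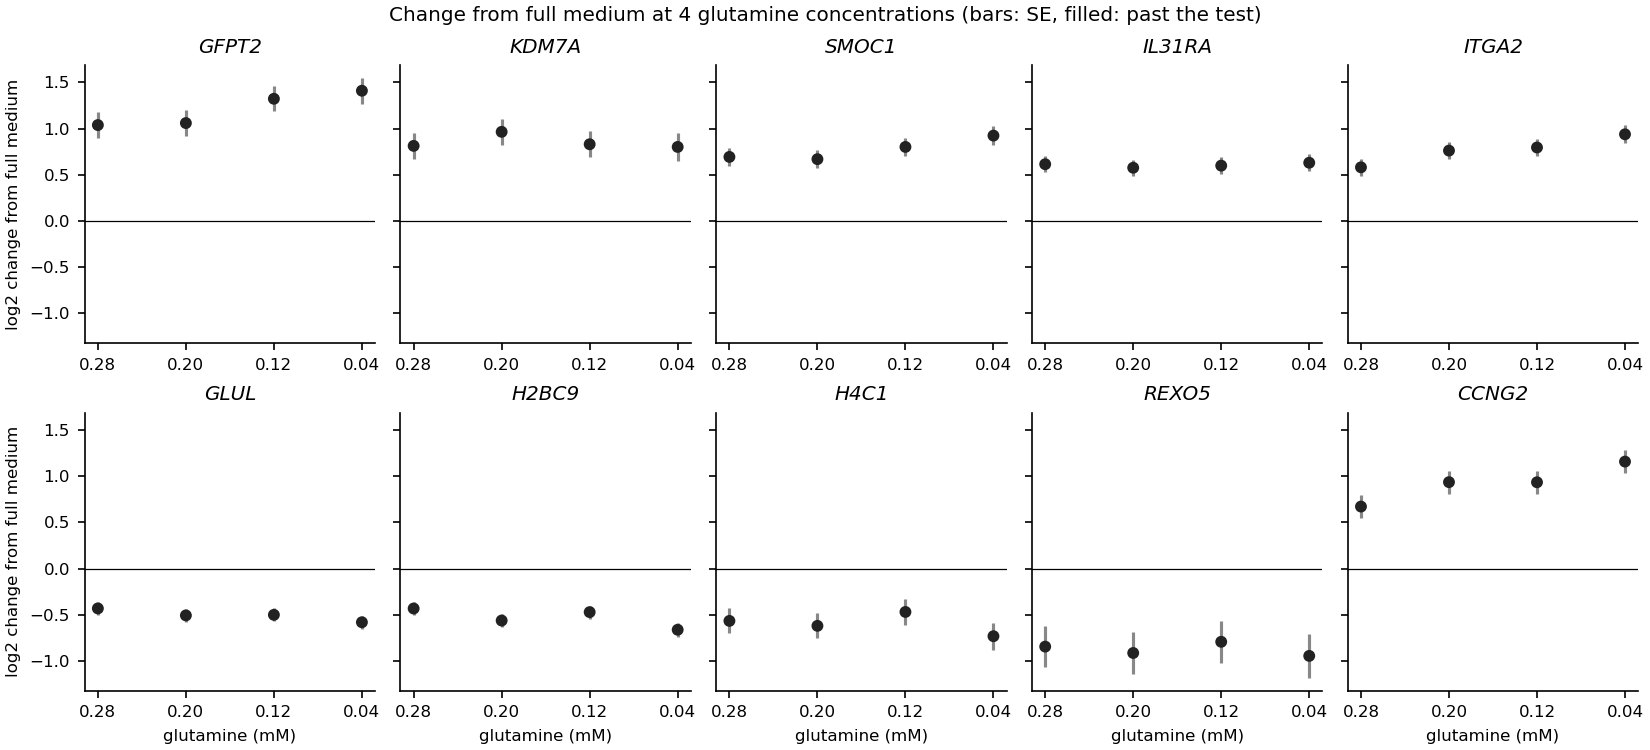
Log2 change from full medium (y axis, bars 1 SE) of 10 genes at 0.28, 0.20, 0.12 and 0.04 mM glutamine (x axis); filled points passed the test and all 4 comparisons share the full-medium libraries. GFPT2 runs from 1.04 to 1.41 and GLUL from -0.43 to -0.58, while IL31RA stays between 0.58 and 0.63.

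The 6 libraries held 7451107 to 13361406 gene counts, with 1.05 to 1.58% of all counts in spike-ins and at most 0.0219% of gene counts in mitochondrial rRNA. In full medium, all 9 basal markers were tested and summed to 21401 to 34260 CPM, against 21248 to 34492 CPM at 0.28 mM. Immune markers summed to at most 2.04 CPM, with PTPRC, CD3E, NKG7 and MS4A1 among those at 0 in all 6, and endothelial markers to 4.06 to 5.81 against 5.29 to 9.55 CPM, with CDH5 and CLDN5 at 0. Fibroblast markers summed to 110 to 168 and 121 to 183 CPM, led by POSTN, with LUM and THY1 at 0. Luminal markers summed to 486 to 610 and 518 to 589 CPM, mostly KRT18 and KRT8. KRT19, ESR1, PGR and KIT had at most 0.539 CPM in any of the 6 libraries, and ELF5 was at 0. Epithelial markers summed to 1314 to 1917 and 1475 to 1944 CPM, led by DSP, while EPCAM had means of 6.92 and 5.71 CPM. No tested marker of these lists was called, against 2.08% of all genes. Only 4 of 9 luminal, 4 of 10 fibroblast, 1 of 8 immune and 1 of 7 endothelial markers were tested, so the others could not be called. Genes that rose had a median GC content of 47.1% and a median transcript length of 5557 bases, genes that fell 58.9% and 2176.5 bases. With an offset for GC content and length 164 genes rose and 112 fell, and 201 of the 287 were still called; beyond that the part of both properties in the result was not tested.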

How the data were processed

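Total RNA was depleted of rRNA (KAPA RNA HyperPrep with RiboErase), spiked with ERCC Mix 2 and sequenced on a NextSeq 2000, per the labels' protocols. The authors deposited 1 table of whole-number counts, unnormalized, with 62754 Ensembl genes and 92 spike-ins as rows. The builds hg38 and GRCh38.p14 are named in the submitters' processing notes; for the aligner, the counter and its strand setting, no source used here names them. All 15 columns matched a sample and 0 were left over. Symbols were found for 42343 genes (RefSeq, GRCh38.p14); GC content, length and overlap came from GENCODE 29, and genes with 20% or more exonic overlap are called uncertain.

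The deposited counts were tested with edgeR 4.0.16 (R 4.3.3): filterByExpr (minimum count 10, total 15), which kept 13828 genes and at least 99.7% of counts per library, TMM factors, 1 quasi-likelihood fit of 15 libraries with terms for group and replicate number, and Benjamini-Hochberg adjusted p under 0.05. Errors are SE of the log2 change. Depth per library limits the precision of genes of few counts. The replicate numbers come from the labels, which do not say what they stand for. With group means removed, libraries sharing a number correlated in all 30 pairs (r 0.184 to 0.489), and those with different numbers had r of -0.406 to 0.0549, so the numbers were taken to pair the libraries. P-values measure the spread left between these cultures after group and replicate number are fitted, pooled over the 15 libraries.

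Named genes are those with the 12 largest rises and 12 largest falls (called, at least 5 CPM, a symbol, groups not overlapping), up to 4 members of each list and 20 fixed genes. DUT and ITGB2 meet none of these rules and were picked with their values known. Some named genes are not reported here. The members, the 40 lists and these rules were chosen with earlier results of these data known. Promoters were to come from the genes that moved most; histone windows are shown instead, since the windows of GFPT2 and GLUL overlap annotated exons.

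Alternatives were no block, the 2 groups alone, DESeq2 1.42.0, its size factors, ERCC scaling, other filters, each library or replicate number left out, thinning to 3704170 counts and a fit without 2 libraries above 1% mitochondrial rRNA. A spline offset for GC content and length, and DESeq2 without the block, were added after the data were seen. The code was tested on simulated data. Figures were drawn with matplotlib 3.10.9 (Python 3.11.15).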

Additional observations from a re-analysis of the deposited data

How the results depend on the processing

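The replicate block decided the calls at 0.28 mM: without it edgeR called 0 genes (0 rose, 0 fell) and 0 between 0.04 and 0.28 mM, and DESeq2 without it called 1, 1 that rose and 0 that fell. The cause was not tested beyond the pairing of the libraries. Fits that left out 1 library or 1 replicate number called 1 to 780 genes, 1 to 448 that rose and 0 to 332 that fell, and 1 to 15 between 0.04 and 0.28 mM. The fit without replicate 3 in any group called 1. ERCC scaling called 120 genes, of which 18 rose, and thinning called 127, 66 that rose and 61 that fell; thinning leaves fewer counts. Between 0.04 and 0.28 mM, DESeq2 with the block called 23 genes, edgeR without a filter 67 and with the GC content and length offset 2; the cause was not tested. DESeq2 with the block (352), the other size factors (291), the 2 groups alone (306), no filter (413), a filter of 5 CPM (355), the fit without the libraries high in mitochondrial rRNA (312) and the offset (276) stayed within 1.5 times of 287.

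With ERCC scaling, which moved the median gene by -0.129, list medians became -0.179 for glutamine enzymes, -0.415 for histones, -0.239 for ribosome biogenesis, -0.201 for the MYC network, -0.174 for G2 and M phase, 0.0121 for integrins and laminins and -0.156 for the polyamine list, and those of NRF2 targets (-0.0145) and immediate early genes (-0.0130) turned. The polyamine median (-0.0228) also turned with the 2 groups alone (0.0111), the 5 CPM filter (0.00873) and the GC content and length offset (0.0132). Leaving out libraries moved the medians of glutamine enzymes between -0.0727 and 0.00943, the MYC network between -0.122 and -0.0282, G2 and M phase between -0.122 and 0.0355, integrins and laminins between 0.105 and 0.226, and the polyamine list between -0.0584 and 0.0406; the cause was not tested. Over the genes named, 2554 of the values under an alternative kept their side of the threshold, 1066 lost and 79 gained a call. None changed direction where it or the main value was called, which was likely because the alternatives reuse the same libraries. Depth limits genes of few counts, for which only large changes can pass.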
